A study of Homo sapiens with 6 samples.

Results

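DNA replication and nucleotide supply genes were described in GLO1-knockout HEK293T cells kept with or without methylglyoxal (MGO), a dicarbonyl that glycolysis gives off as a side product and that modifies proteins and DNA. The members were the rows of the 6 count tables whose gene symbol equals that of a listed protein of origin licensing and firing, of the replicative polymerases, of the sliding clamp and its loader, of fork protection or of deoxynucleotide supply. All 54 listed symbols were found, 1 row each, among 56832 rows, and all 54 passed the filter on low counts that left 17415 genes in the test. The MGO group held 3 libraries (numbered 1, 3 and 4) of cells given 0.2 mM MGO overnight, and the Untreated group held 3 libraries (numbered 1, 2 and 4) of the same cells without MGO. HEK293T is a human embryonic kidney line that carries the SV40 large T antigen, a viral protein that binds the RB family of E2F repressors, and every library comes from cells whose GLO1, the first enzyme of MGO removal, had been knocked out. No library of cells with intact GLO1 was analysed here, and the labels do not say whether the knockout line is 1 clone or whether each library is a culture of its own. The p-values therefore rest on the spread between these 6 libraries, which the test partly pools across genes, and that spread may be technical.

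DNA replication starts at origins that are licensed in the G1 phase, when the origin recognition complex (ORC), CDC6 and CDT1 load the MCM helicase as an inactive ring. Geminin (GMNN) blocks CDT1 once S phase has begun, and the DBF4-dependent kinase CDC7 together with cyclin-dependent kinases then turns the ring into an active helicase with CDC45 and the GINS complex. Polymerase alpha with primase starts each strand, polymerases epsilon and delta extend it on the PCNA clamp, RPA coats the exposed single strands, and ribonucleotide reductase supplies deoxynucleotides. Many of these genes are textbook targets of E2F transcription factors, which the RB family holds in check.

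Promoter sequences are given for 5 members: the member with the largest rise (CDT1), its inhibitor geminin, a GINS subunit and an ORC subunit with large rises (GINS3 and ORC6), and the member with the largest fall (RPA1). Each window runs 5′ to 3′ from 250 bases before to 50 bases after a RefSeq transcript start on GRCh38.p14, and capitals mark any match to the E2F octamers described after the sequences.
CDT1 (chr16:88803539-88803838, plus strand): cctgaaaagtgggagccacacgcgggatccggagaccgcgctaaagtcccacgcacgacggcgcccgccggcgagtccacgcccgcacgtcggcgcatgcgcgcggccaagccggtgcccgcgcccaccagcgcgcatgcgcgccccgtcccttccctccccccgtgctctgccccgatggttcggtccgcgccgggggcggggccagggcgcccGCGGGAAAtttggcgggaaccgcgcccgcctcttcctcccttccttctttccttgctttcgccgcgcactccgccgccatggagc
ORC6 (chr16:46689409-46689708, plus strand): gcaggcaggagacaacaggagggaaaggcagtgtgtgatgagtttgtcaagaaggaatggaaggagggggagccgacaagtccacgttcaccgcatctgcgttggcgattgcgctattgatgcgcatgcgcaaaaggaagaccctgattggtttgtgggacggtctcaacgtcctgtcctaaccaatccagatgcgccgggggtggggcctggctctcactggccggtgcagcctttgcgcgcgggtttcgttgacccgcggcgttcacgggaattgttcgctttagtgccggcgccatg
GINS3 (chr16:58392221-58392520, plus strand): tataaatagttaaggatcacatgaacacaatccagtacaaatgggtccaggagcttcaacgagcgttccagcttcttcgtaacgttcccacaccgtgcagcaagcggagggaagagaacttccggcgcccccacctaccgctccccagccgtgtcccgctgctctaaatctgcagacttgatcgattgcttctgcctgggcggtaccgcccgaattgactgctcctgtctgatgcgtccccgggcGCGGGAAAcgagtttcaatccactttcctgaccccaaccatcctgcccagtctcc
GMNN (chr6:24775163-24775462, plus strand): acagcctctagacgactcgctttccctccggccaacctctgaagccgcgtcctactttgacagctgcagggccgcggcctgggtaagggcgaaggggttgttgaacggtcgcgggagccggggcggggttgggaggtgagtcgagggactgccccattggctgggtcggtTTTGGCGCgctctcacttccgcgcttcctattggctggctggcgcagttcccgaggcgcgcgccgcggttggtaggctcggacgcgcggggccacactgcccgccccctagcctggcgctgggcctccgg
RPA1 (chr17:1829755-1830054, plus strand): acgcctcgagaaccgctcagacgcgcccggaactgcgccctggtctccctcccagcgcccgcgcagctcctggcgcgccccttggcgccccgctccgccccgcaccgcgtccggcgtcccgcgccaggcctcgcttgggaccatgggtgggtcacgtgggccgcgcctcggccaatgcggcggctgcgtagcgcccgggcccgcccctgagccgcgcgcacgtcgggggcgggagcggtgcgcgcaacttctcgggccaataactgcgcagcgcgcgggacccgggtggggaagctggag

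The octamers searched were TTTCCCGC, TTTGGCGC, TTTCGCGC and TTTGCCGC on both strands, and they can overlap one another. CDT1 and GINS3 each carried 1 match (GCGGGAAA), which began 35 bases upstream of the start in CDT1 and 5 bases upstream in GINS3. GMNN has 2 RefSeq windows, and the one shown carried 1 match (TTTGGCGC) that began 80 bases upstream. Its other window (chr6:24774687-24774986), not shown, carried no match. No match lay in the windows of ORC6 and RPA1. RefSeq windows were matched by symbol for 48 of the 54 members, in 64 windows, and 23 windows (35.9%) held an octamer, against 1164 of 35116 windows of all genes (3.31%). The unmatched members were MCM4, MCM5, GINS4, POLD3, RPA2 and RPA3. Counted by gene, matches stood in 16 of the 34 members called higher in MGO, in 4 of the 9 called lower and in 3 of the 5 not called. The CCAAT box, the motif of the factor NF-Y, was found on either strand in 35 of the 64 windows (54.7%), against 34.6% of all windows. A match is a string of letters in these windows and does not show that a factor was bound.

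Depth and treatment cannot be told apart by design, since every MGO library was shallower than every Untreated library. Totals were 19195920, 19243453 and 21544749 counts in MGO libraries 1, 3 and 4, against 45050433, 45910040 and 41002134 counts in Untreated libraries 1, 2 and 4. Members held 163959 to 199730 counts per MGO library and 302510 to 337017 per Untreated library, and apart from POLD4 none had fewer than 222 counts in any library. Their share of all counts was 0.854%, 0.904% and 0.927% in MGO, against 0.713%, 0.734% and 0.738% in Untreated libraries (p = 0.1 in a two-sided exact permutation test, below which 3 against 3 libraries cannot go). Mitochondrial transcripts took 8.17%, 6.00% and 5.34% of counts in MGO, against 5.42%, 4.204% and 4.28% in Untreated libraries. MGO library 1, which had the highest mitochondrial share, was the lowest of the MGO libraries for 30 of the 54 members. Untreated library 1 had the highest mitochondrial share of its own group and was the lowest Untreated library for 34 members. The part of RNA quality in the results was not tested. GLO1 transcripts stood at 134.5, 142 and 145 CPM in MGO, against 51.0, 46.9 and 46.3 CPM in Untreated libraries, so every MGO library was higher. These levels do not check the knockout, because no library with intact GLO1 stands beside them. All 9 epithelial and kidney precursor markers (among them KRT8, KRT18 and PAX2) exceeded 1 CPM in every library, the 4 leukocyte markers summed to at most 0.938 CPM and the 4 endothelial markers to at most 1.80 CPM. The 4 fibroblast markers summed to 10.6 to 12.8 CPM in MGO and 24.7 to 25.8 CPM in Untreated libraries, almost all of it COL1A1, and none of these marker genes was at 0 in all 6 libraries. The part of these markers in the results was not tested.

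More members were higher than lower in MGO, and most changes were small. Of the 54 members, 49 were called changed, where 83.1% of all tested genes were (edgeR quasi-likelihood test, adjusted p under 0.05). By direction 38 were called higher and 11 lower, where 41.8% of all tested genes were called higher and 41.2% lower. The 5 that did not pass were MCM3, GINS2, POLD4, RRM1 and TYMS. The members' shares were 70.4% higher and 20.4% lower. With Untreated counts thinned to the depth of MGO libraries, 40 members were called higher and 7 lower. In that setting 6793 of 16108 tested genes were called higher and 6563 lower. Changes of at least 1.5-fold were seen in 16 members: 14 rose and 2 fell by that much, where 28.7% of all tested genes rose and 27% fell as far. At least 2-fold rises were seen in 5 members, CDT1, ORC6, GINS3, ORC1 and POLE3 (background 19.8%), and an at least 2-fold fall in 1, RPA1 (background 16.7%). The median log2 fold change was 0.31 over the members and 0.01 over all tested genes. In 50 members the MGO libraries all lay on 1 side of the Untreated libraries, where 83.5% of all tested genes did so. Levels varied little within a group: for 53 of the 54 members the highest library of a group was less than 1.2 times the lowest, and POLD4, the least abundant member, ranged 1.62-fold. Levels are TMM-scaled CPM, given in the order MGO libraries 1, 3 and 4 and Untreated libraries 1, 2 and 4, or as mean ± SD with n = 3 per group. In bulk RNA, a larger share of cells in a phase of the cycle and more RNA per cell cannot be told apart.

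**Figure D1:**
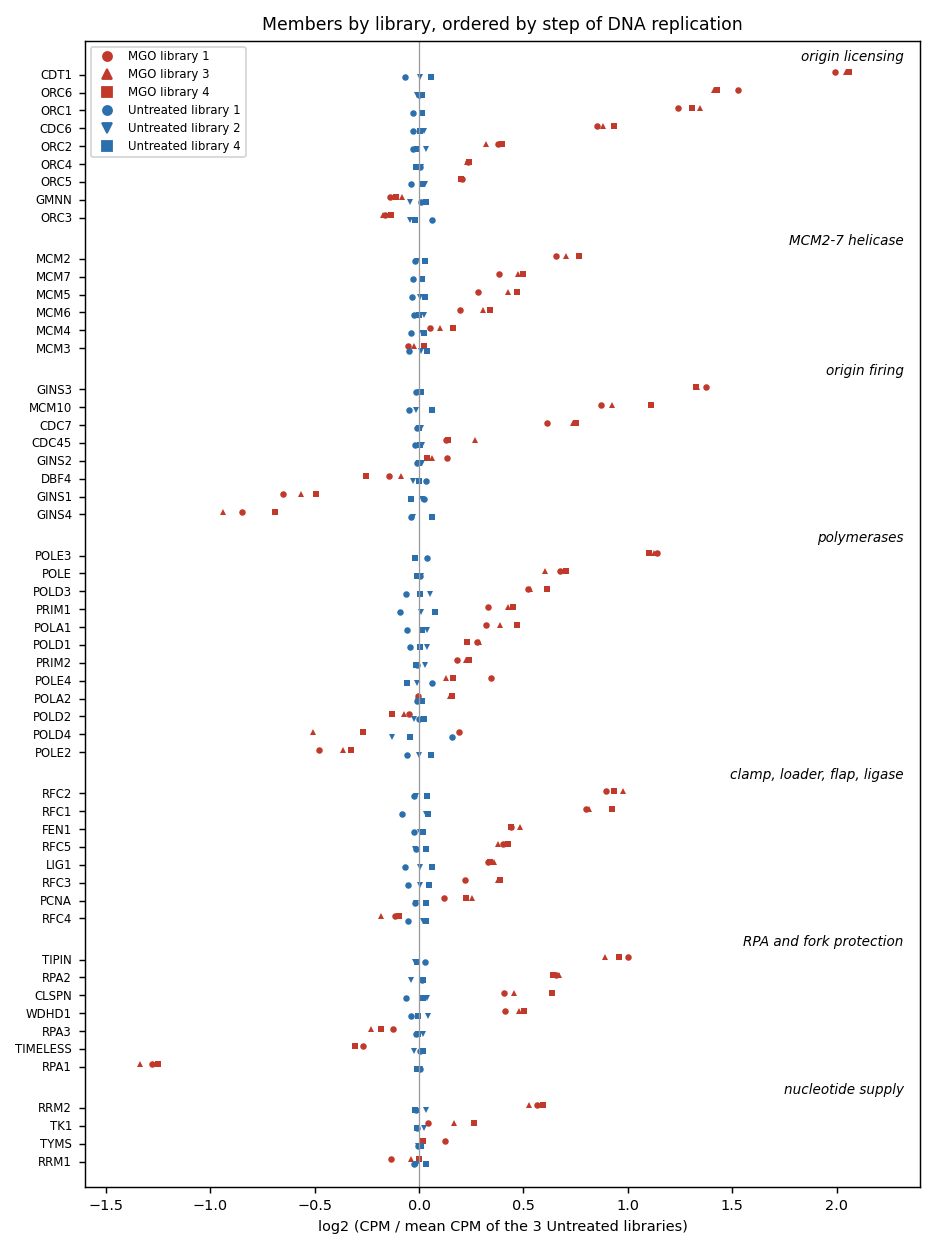
Level of each of the 54 members in each library, as log2 of CPM over the mean CPM of the 3 Untreated libraries (x axis), with members grouped by step of replication and ordered by change. Red points are MGO libraries and blue points Untreated libraries, and the spread within a group is narrow beside the shift between groups for CDT1, ORC6, ORC1, GINS3, POLE3 and RPA1.

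**Figure D2:**
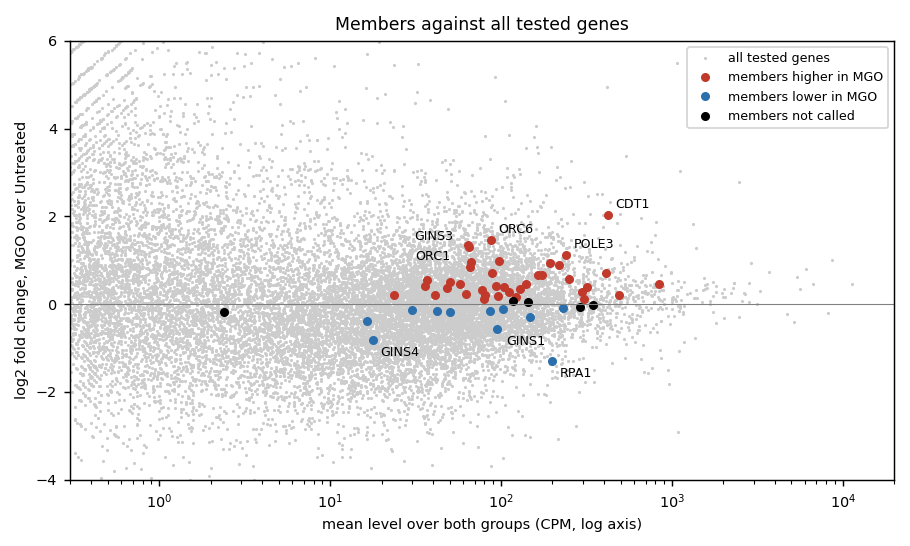
Log2 fold change of MGO over Untreated (y axis) against the mean level over both groups in CPM (x axis, log scale) for all 17415 tested genes in grey, with the 54 members coloured by call. Genes outside the axis limits are not drawn, and members run from CDT1 at 2.03 to RPA1 at -1.29, with 38 called higher and 11 lower.

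Origin licensing held the largest rise. CDT1, which loads the MCM ring at origins (GENCODE gene at chromosome 16, 88803213 to 88809258, plus strand), stood at 665, 689 and 696 CPM in MGO, against 159.7, 168 and 174 CPM in Untreated libraries. Every MGO library was more than 3 times as high as every Untreated library, with a log2 fold change of 2.03 (SE 0.038, edgeR adjusted p = 4.78e-29), or 4.09-fold higher. Its inhibitor GMNN averaged 98.9 ± 1.84 CPM in MGO and 107 ± 3.02 CPM in Untreated (log2 fold change -0.11, edgeR adjusted p = 0.0102). The count ratio of CDT1 to GMNN, in which library scaling cancels, was 6.84, 6.83 and 7.04 in MGO, against 1.49, 1.62 and 1.59 in Untreated libraries. The ratio was thus 4.41-fold higher in MGO, with no overlap between groups (exact permutation p = 0.1). The fall of GMNN was small and its call was lost in 4 of 17 alternative settings, while over all 17 its log2 fold change stayed between -0.29 and -0.045.

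CDC6, the ATPase that works with CDT1, stood at 275, 281 and 291 CPM in MGO, against 149, 155 and 153 CPM in Untreated libraries. The MGO libraries were all higher, with a log2 fold change of 0.89 (SE 0.037, edgeR adjusted p = 4.46e-20). ORC1, the ORC subunit whose level oscillates through the cycle in human cells, stood at 88.8, 95.4 and 92.8 CPM in MGO, against 36.8, 37.9 and 37.9 CPM in Untreated libraries, or 2.46-fold higher (edgeR adjusted p = 7.49e-23). ORC6, the smallest and most loosely held subunit, stood at 134, 124 and 125 CPM in MGO, against 46.4, 46.03 and 46.9 CPM in Untreated libraries, or 2.74-fold higher (edgeR adjusted p = 8.65e-25). Each MGO library exceeded each Untreated library more than 2-fold for both genes. The 4 core subunits between them moved far less: ORC2 (log2 fold change 0.37), ORC4 (0.23) and ORC5 (0.20) were called higher and ORC3 (-0.16) lower. The call of ORC5 was lost in 3 of 17 settings. Levels of different genes were compared per kilobase of merged GENCODE exon, an approximation because the annotation used for counting is unknown here. On that scale ORC1 was at 29.3 CPM per kb in MGO and 11.9 in Untreated and ORC6 at 29.6 CPM per kb in MGO and 10.8 in Untreated, while ORC3, the highest subunit in Untreated cells, was at 22.01 CPM per kb in MGO and 24.5 in Untreated. By these lengths ORC6 and ORC1 were the 2 most abundant ORC transcripts in MGO, and ORC3 was the most abundant in Untreated cells. The count ratio of CDC6 to ORC1 was 3.09, 2.94 and 3.14 in MGO, against 4.05, 4.09 and 4.04 in Untreated libraries, a log2 difference of -0.41. Of the 9 licensing members 7 were called higher (77.8%) and 2 lower (22.2%), where 41.8% and 41.2% of all tested genes were. The summed level of the licensing members was 1531 ± 23.4 CPM in MGO and 739 ± 8.48 CPM in Untreated libraries, to which CDT1 contributed the most.

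**Figure D3:**
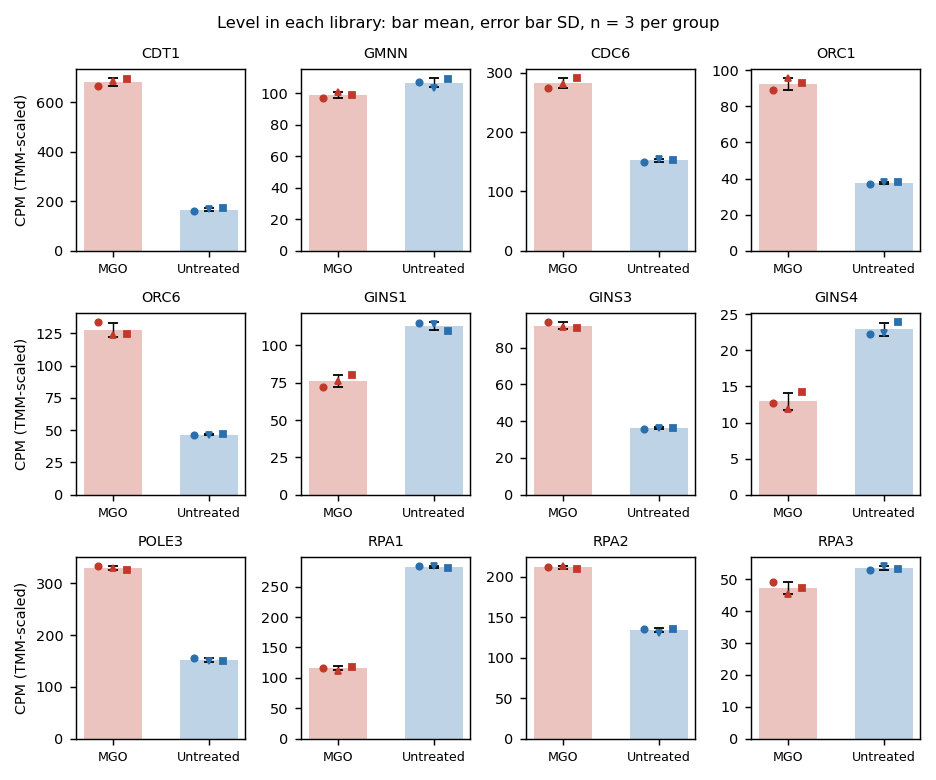
Level in CPM (y axis, from 0) of 12 members in MGO (red, left) and Untreated (blue, right) libraries: bars are means, error bars are SD over 3 libraries and points are single libraries. CDT1 is 4.09-fold higher and RPA1 2.44-fold lower in MGO, while GMNN and RPA3 shift by less than 1.2-fold.

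Of the 6 genes of the MCM ring, which unwinds DNA ahead of the fork, 5 were called higher and MCM3 was not. That is 83.3% higher and 0% lower, against 41.8% and 41.2% of all tested genes. Among the 5, MCM4 turned in direction without a filter on low counts. MCM2 stood at 492, 509 and 531 CPM in MGO, against 307, 310.2 and 318 CPM in Untreated libraries. It was 1.64-fold higher in MGO (edgeR adjusted p = 6.72e-18), and the groups did not overlap. MCM7 (log2 fold change 0.45), MCM5 (0.40) and MCM6 (0.28) were also higher. MCM4 was called higher by a log2 fold change of only 0.11, against -0.076 without that filter. Its call was kept in 10 of 17 alternative settings. Omitting the filter lowered the log2 fold change of all 54 members alike (shift -0.18), so it turns any rise smaller than that. MCM3, at 343 ± 9.20 CPM in MGO and 347 ± 10.7 CPM in Untreated, did not pass (edgeR adjusted p = 0.672), and its log2 fold change crossed 0 between settings. In 2 of 17 settings MCM3 was called lower. Per kilobase of exon MCM7 was the highest subunit, at 222 CPM per kb in MGO and 162 in Untreated. By these lengths the lowest was MCM4 in MGO, at 45.7 CPM per kb, and MCM5 in Untreated cells, at 37.6 CPM per kb. The summed level of the ring was 2832 ± 119.8 CPM in MGO and 2208 ± 43.8 CPM in Untreated libraries.

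Among origin firing genes GINS3 rose and GINS4 fell the most. GINS3, a subunit of the GINS tetramer that joins the MCM ring to polymerase epsilon, stood at 93.9, 91.0 and 90.7 CPM in MGO, against 35.8, 36.4 and 36.5 CPM in Untreated libraries. The GINS3 libraries of the 2 groups were far apart, with a log2 fold change of 1.34 (SE 0.042, edgeR adjusted p = 1.75e-23). GINS4, its partner in the same tetramer, stood at 12.7, 11.9 and 14.2 CPM in MGO, against 22.3, 22.4 and 23.9 CPM in Untreated libraries. All MGO libraries were lower, with a log2 fold change of -0.82 (SE 0.069, edgeR adjusted p = 2.82e-12). GINS1 was also lower, at 76.2 ± 4.13 CPM in MGO and 113 ± 2.71 CPM in Untreated (1.48-fold lower), and GINS2, at a log2 fold change of 0.08, did not pass (edgeR adjusted p = 0.0641). GINS2 turned to -0.0289 with library size as the only scaling and to -0.11 without a filter. Without a filter it was called lower (edgeR adjusted p = 0.0362), and in 5 of 17 alternative settings it was called higher. Among counts of the 4 GINS genes within a library, a share free of scaling, GINS3 took 31.0, 30.5 and 30.1% in MGO, against 12.5, 12.6 and 12.9% in Untreated libraries. GINS1 took 23.7, 25.7 and 26.6% in MGO, against 40.2, 39.7 and 38.7% in Untreated libraries. The make-up of GINS transcripts therefore differed in opposite directions for GINS3 and GINS1, while the share of GINS2 lay between 38.7% and 41.1% in all 6 libraries.

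MCM10, which helps the assembled helicase to open the origin, stood at 119, 124 and 141 CPM in MGO, against 63.1, 64.7 and 68.1 CPM in Untreated libraries, or 1.96-fold higher (edgeR adjusted p = 2.45e-13). CDC7, the firing kinase, stood at 103, 112 and 113 CPM in MGO, against 67.0, 68.0 and 67.4 CPM in Untreated libraries, or 1.63-fold higher (edgeR adjusted p = 1.40e-16). Both were higher in every MGO library, whereas DBF4, the activating subunit of CDC7, was called lower (log2 fold change -0.16, edgeR adjusted p = 0.00353), a call lost in 3 of 17 settings. CDC45, which completes the active helicase, was called higher by 0.18 on the log2 scale, a value that turned to -0.0032 without a filter on low counts. The call of CDC45 was kept in 14 of 17 settings. Of the 8 firing members 4 were called higher (CDC45 with the turn just given), 3 lower and 1 did not pass. These shares of 50% higher and 37.5% lower lie near the 41.8% and 41.2% of all tested genes. The summed level was 681 ± 14.3 CPM in MGO and 553 ± 2.51 CPM in Untreated libraries.

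**Figure D4:**
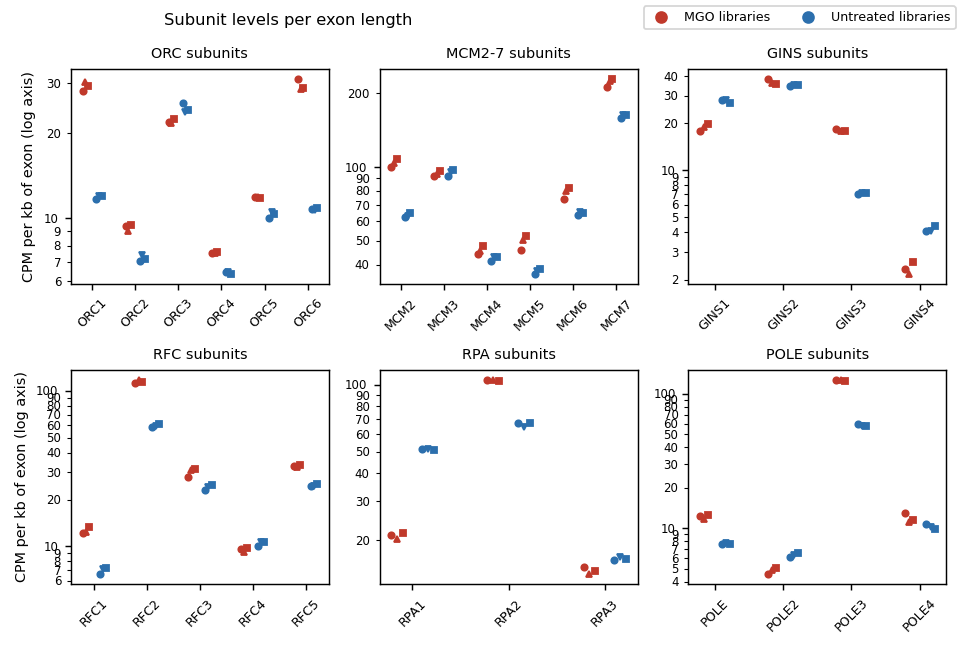
Level per kilobase of merged exon (CPM per kb, log axis) of each subunit of 6 complexes in MGO (red, left of each pair) and Untreated (blue) libraries, 1 point per library. Subunits of 1 complex move apart in ORC (ORC1 and ORC6 higher, ORC3 slightly lower), GINS (GINS3 higher, GINS1 and GINS4 lower) and RPA (RPA2 higher, RPA1 lower).

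Among replicative polymerase genes, the histone-fold subunit POLE3 rose the most. POLE3, which binds histones as part of polymerase epsilon and also belongs to a chromatin remodelling complex, stood at 333, 329.9 and 325 CPM in MGO, against 155, 149 and 149 CPM in Untreated libraries. It was 2.18-fold higher in MGO, with a log2 fold change of 1.12 (SE 0.036, edgeR adjusted p = 5.63e-23). POLE, the catalytic subunit that copies the leading strand, stood at 203, 194 and 208 CPM in MGO, against 128, 128 and 126 CPM in Untreated libraries, or 1.58-fold higher (edgeR adjusted p = 1.85e-16). No library of 1 group reached the other for either gene. The second subunit POLE2 was lower (14.3 against 18.7 CPM, MGO against Untreated means, log2 fold change -0.38), and POLE4, the partner of POLE3, was called higher by 0.21. The call of POLE4 was lost in 4 of 17 settings.

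Polymerase alpha and primase, which lay down the first stretch of each new strand, shifted upward by small amounts: PRIM1 (log2 fold change 0.41), POLA1 (0.39), PRIM2 (0.21) and POLA2 (0.10) were all called higher, though POLA2 turned to -0.000801 with library size as the only scaling and to -0.078 without a filter. The POLA2 libraries overlapped between groups, and the call of POLA2 was kept in only 8 of 17 settings. For polymerase delta, which copies the lagging strand, POLD3 (log2 fold change 0.56) and the catalytic POLD1 (0.26) were called higher and POLD2 (-0.08) lower, the last a call lost in 9 of 17 settings. POLD4, the smallest subunit, was barely expressed at 2.25 ± 0.567 CPM in MGO and 2.51 ± 0.260 CPM in Untreated and did not pass (edgeR adjusted p = 0.353). In 1 of 17 settings POLD4 was called lower. Per kilobase of exon the 4 polymerase alpha and primase genes lay within 1.30-fold of each other in MGO and 1.26-fold in Untreated cells. POLD2 exceeded POLD4 by 81.8-fold in MGO and 77.4-fold in Untreated cells. In all, 9 of the 12 polymerase members were called higher (POLA2 with the turns just given), 2 lower and 1 did not pass. These shares of 75% higher and 16.7% lower stand beside 41.8% and 41.2% of all tested genes.

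Among the clamp, its loader RFC and the enzymes that join Okazaki fragments, only 2 loader subunits rose by at least 1.5-fold. RFC2, a small loader subunit, stood at 247, 261 and 253 CPM in MGO, against 130.3, 131 and 136 CPM in Untreated libraries, or 1.91-fold higher (edgeR adjusted p = 1.84e-20). RFC1, the large subunit, stood at 81.8, 82.6 and 89.3 CPM in MGO, against 44.5, 48.1 and 48.5 CPM in Untreated libraries, or 1.80-fold higher (edgeR adjusted p = 2.53e-17). For both genes every MGO library was above every Untreated library. RFC5 (log2 fold change 0.40) and RFC3 (0.33) were higher by less, and RFC4 was called lower (-0.13), a call lost in 10 of 17 settings. PCNA, the ring that tethers polymerases to DNA, averaged 521 ± 24.8 CPM in MGO and 454 ± 8.72 CPM in Untreated (log2 fold change 0.20, edgeR adjusted p = 1.06e-05). FEN1, the flap nuclease of Okazaki fragments, and LIG1, the ligase that seals them, were called higher by 0.45 and 0.34 on the log2 scale. The count ratio of PCNA to FEN1 was 3.06, 3.26 and 3.28 in MGO, against 3.83, 3.77 and 3.86 in Untreated libraries, a log2 difference of -0.26. Of these 8 members 7 were called higher (87.5%) and 1 lower (12.5%), where 41.8% and 41.2% of all tested genes were. The summed level of the 8 members was 1388 ± 41.0 CPM in MGO and 1046 ± 24.5 CPM in Untreated libraries.

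RPA, the trimer that coats single-stranded DNA, showed the largest fall. RPA1, its large DNA-binding subunit (GENCODE gene at chromosome 17, 1829702 to 1900082, plus strand), stood at 116, 112 and 119 CPM in MGO, against 283, 283 and 280.2 CPM in Untreated libraries. Every MGO library held less than 0.5 times the level of every Untreated library, with a log2 fold change of -1.29 (SE 0.038, edgeR adjusted p = 4.83e-24), or 2.44-fold lower. RPA2, the middle subunit, which checkpoint kinases phosphorylate, went the other way and stood at 212, 214 and 209.9 CPM in MGO, against 136, 131 and 136 CPM in Untreated libraries. Its libraries did not overlap either, with a log2 fold change of 0.66 (SE 0.037, edgeR adjusted p = 1.23e-16). RPA3, the small subunit, was called lower (log2 fold change -0.18, edgeR adjusted p = 6.11e-04). Among counts of the 3 RPA genes, RPA1 took 30.8, 30.2 and 31.6% in MGO, against 60.0, 60.5 and 59.6% in Untreated libraries. RPA2 took 56.2, 57.6 and 55.9% in MGO, against 28.8, 28.0 and 29.01% in Untreated libraries. RPA2 was therefore the most counted RPA transcript in MGO and RPA1 the most counted in Untreated cells. Per kilobase of exon RPA2 was the highest in both groups, with RPA1 at 21.1 CPM per kb in MGO and 51.4 in Untreated and RPA2 at 105 CPM per kb in MGO and 66.6 in Untreated.

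The fork protection genes were split as well. TIPIN, which binds TIMELESS in a complex that stabilises stalled forks, stood at 91.5, 84.9 and 88.8 CPM in MGO, against 46.6, 45.2 and 45.4 CPM in Untreated libraries, or 1.93-fold higher (edgeR adjusted p = 1.77e-19). TIMELESS was lower, at 133 ± 2.01 CPM in MGO and 163 ± 2.45 CPM in Untreated (log2 fold change -0.29, edgeR adjusted p = 1.99e-08). CLSPN, the mediator claspin that brings CHEK1 to the checkpoint kinase ATR, and WDHD1, which links the helicase to polymerase alpha, were called higher by 0.51 and 0.46 on the log2 scale. Of all tested genes 41.8% were called higher and 41.2% lower. Over RPA and the fork protection genes 4 of 7 were called higher (57.1%) and 3 lower (42.9%, near the share of all genes). Their summed level was 722 ± 8.68 CPM in MGO and 769 ± 2.20 CPM in Untreated libraries, the only step of the 7 whose sum was lower in MGO. Without RPA1 the other 6 genes summed to 606 ± 5.26 CPM in MGO and 487 ± 3.69 CPM in Untreated libraries, so the lower sum rests on RPA1 alone.

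Of the 4 nucleotide supply members, RRM2 had the largest change. RRM2, the small subunit, whose level varies through the cell cycle, stood at 297, 289 and 303 CPM in MGO, against 199, 205 and 198 CPM in Untreated libraries. It was 1.48-fold higher, with a log2 fold change of 0.56 (SE 0.036, edgeR adjusted p = 3.09e-15). RRM1, the large catalytic subunit, averaged 282 ± 13.4 CPM in MGO and 294 ± 6.08 CPM in Untreated and did not pass (log2 fold change -0.06, edgeR adjusted p = 0.16). In 3 of 17 settings RRM1 was called lower. The count ratio of RRM2 to RRM1 was 1.11, 1.01 and 1.03 in MGO, against 0.688, 0.704 and 0.659 in Untreated libraries, with no overlap (log2 difference 0.62, exact permutation p = 0.1). TK1, the cytosolic thymidine kinase, was called higher by 0.16 on the log2 scale, a value that turned to -0.022 without a filter on low counts. The call of TK1 was kept in 13 of 17 settings. TYMS, thymidylate synthase, did not pass at 0.06 (edgeR adjusted p = 0.183), and its sign turned in 3 of 17 settings. It was called higher in 2 of 17 settings and lower without a filter (edgeR adjusted p = 0.00882). Members of this step thus held 2 called higher (TK1 with the turn just given), none lower and 2 not called. The 50% called higher lies near the 41.8% of all tested genes, of which 41.2% were called lower.

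Other genes of the pathway, 104 in 8 lists that hold none of the members, went in both directions: 54 were called higher, 41 were called lower and the other 9 were not called. Their median log2 fold change was 0.10. Lists are described by counts beside the background of 41.8% higher and 41.2% lower, and the genes named are those with the smallest p in each. Among 22 genes of origin control 15 were higher and 5 lower. DTL, the receptor of the CUL4 ubiquitin ligase that marks CDT1 for destruction on PCNA, stood at 609, 614 and 642 CPM in MGO, against 107, 113 and 108 CPM in Untreated libraries, or 5.67-fold higher (edgeR adjusted p = 2.65e-31). SKP2, the receptor of a second ligase that recognises CDT1, averaged 42.4 ± 1.24 CPM in MGO and 113 ± 2.30 CPM in Untreated and was 2.67-fold lower. CDC25A, the phosphatase that activates CDK2, averaged 297 ± 4.31 CPM in MGO and 106 ± 0.576 CPM in Untreated, and KAT7, the histone acetyltransferase that acts at origins, 256 ± 10.6 CPM in MGO and 107 ± 1.57 CPM in Untreated. The log2 fold change of DTL (2.50) was above that of CDT1, the highest member.

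The E2F and RB families were divided, with 7 of 13 genes higher and 5 lower. E2F8, a repressor among the E2F factors, averaged 63.4 ± 3.37 CPM in MGO and 12.4 ± 0.0435 CPM in Untreated (5.10-fold higher), and the activator E2F2 95.4 ± 7.56 CPM in MGO and 47.3 ± 0.601 CPM in Untreated. TFDP1, the dimerisation partner of most E2F factors, was lower at 107 ± 3.16 CPM in MGO and 248 ± 4.40 CPM in Untreated, as was the RB relative RBL2 at 29.7 ± 1.35 CPM in MGO and 73.3 ± 2.26 CPM in Untreated. All 4 passed the test with an edgeR adjusted p of at most 1.38e-18. Among 25 genes of the fork and the ATR checkpoint 16 were higher and 9 lower. ATAD5, which unloads PCNA, averaged 86.4 ± 1.503 CPM in MGO and 20.4 ± 0.933 CPM in Untreated (4.23-fold higher), the checkpoint kinase CHEK1 98.5 ± 4.78 CPM in MGO and 44.8 ± 0.781 CPM in Untreated, and HUS1 and RAD1 of the checkpoint clamp were 2.21-fold higher and 1.74-fold higher.

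Nucleotide synthesis outside the members was mostly lower. All 6 genes of pyrimidine synthesis were called lower (median log2 fold change -0.82). CAD, which carries the first 3 steps of the pathway, stood at 83.0, 76.9 and 78.3 CPM in MGO, against 172, 161 and 168 CPM in Untreated libraries, or 2.10-fold lower. DHODH, its mitochondrial dehydrogenase, was 2.16-fold lower, the kinase CMPK1 2.07-fold lower and the CTP synthase CTPS1 1.49-fold lower. Of 12 genes of purine synthesis 7 were lower, 3 higher and 2 did not pass (median -0.15). PRPS2, which makes the ribose donor, stood at 35.3, 37.8 and 35.4 CPM in MGO, against 140.1, 143 and 147 CPM in Untreated libraries, or 3.96-fold lower, with PFAS (2.01-fold lower), ADSS (2.02-fold lower) and PAICS (1.37-fold lower) also lower. Among 11 further genes of deoxynucleotide supply and removal 7 were lower and 3 higher (median -0.28). SAMHD1, which degrades deoxynucleotides, averaged 41.2 ± 0.438 CPM in MGO and 66.1 ± 0.544 CPM in Untreated. The mitochondrial kinases split, with DGUOK 1.93-fold higher and TK2 2.17-fold lower. These values stand beside RRM2, which was 1.48-fold higher in the same libraries.

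**Figure D5:**
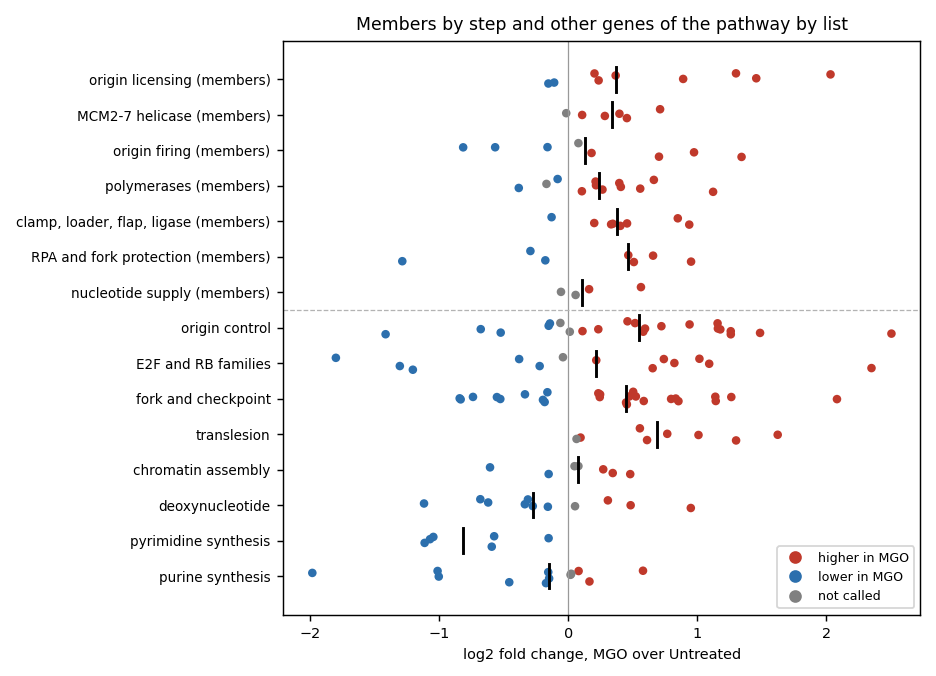
Log2 fold change of MGO over Untreated (x axis) of each gene, with the 54 members by step above the dashed line and 104 other genes of the pathway by list below it; black bars are medians and colours give the call. Medians of all 7 member steps are above 0, and those of the deoxynucleotide, pyrimidine and purine lists are below 0.

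The strand setting of the counting is unknown here. By GENCODE release 29 the exons of 25 members overlap exons of another gene, and for 19 of them such a gene lies on the opposite strand. The overlap covered 39.1% of the exon length of TYMS (ENOSF1, opposite strand) and 35.1% of that of POLA2 (AP000944.2, same strand), and 22.7% of that of MCM2 and 10.9% of that of GINS3 (antisense transcripts). A single other gene covered 21.3% of the exon length of POLD4, 21.2% of that of GINS4, 21.0% of that of TIPIN, 20.2% of that of RRM2 and 14.9% of that of PRIM1. Values of these 9 genes are less certain for that reason. For RPA1 it was 2.84%, and CDT1, CDC6, ORC1 and ORC6 had none. Pseudogenes named after the member exist for 9 members, including PCNA, RPA2 and RRM2, and could share reads with them.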

How the data were processed

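Poly(A) RNA of 6 libraries was measured. The deposited files hold raw counts per gene symbol, 1 library per file, with no normalization by the authors per the labels. Per the submitters' processing notes, HTSeq 0.9.1, STAR 2.4, Trim Galore and Picard were among the tools, and hg38 was the build. Tool roles, annotation and strand setting: not given in the sources used here. The 29 rows with a date in place of a symbol were tested and are not named. Computed here with edgeR 4.0.16 in R 4.3.3 were filterByExpr, TMM, robust glmQLFit and a two-sided glmQLFTest over 17415 genes (no covariate, 4 residual degrees of freedom, Benjamini-Hochberg at 0.05). SE is the log2 fold change over the square root of F. Exon lengths and coordinates come from GENCODE 29 (GRCh38, the assembly of hg38), and promoters from RefSeq. Within groups, chi-square per degree of freedom over genes ran from 1.88 to 14.7, so no pair agreed within sampling noise (about 1). Members and lists were chosen with earlier results of these data known. All members are named, with every library's value for those called with at least a 1.5-fold change and the largest change per step. Of the other lists, the 4 genes with the smallest p are named, except 1 gene that is not reported here. Counts carry no molecular identifiers, so PCR duplicates are not independent. Alternatives were other scalings (library size, upper quartile, RLE), other filters, leaving out libraries, a replicate block, DESeq2 1.42.0, limma 3.58.1 voom, a test against a fold of 1.5, and thinning.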

Additional observations from a re-analysis of the deposited data

How the results depend on the processing

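The 17 members with values in every library kept their direction and call in all 16 alternatives other than the test against a fold of 1.5, as did 34 of the 49 called members. Against a fold of 1.5, 14 members were higher and 2 lower, and 4363 and 3942 of all genes. Members called lower numbered 7 under a floor of 1 CPM per library and 7 after thinning Untreated counts to MGO depth. Over all genes, 5474 were higher and 5589 lower of 12790 tested under that floor, and 6793 and 6563 of 16108 after thinning. Leaving out each library in turn gave 35 to 37 members higher and 9 to 12 lower. Over all genes these runs gave 6947 to 7441 higher and 6919 to 7444 lower, of 16925 to 18677 tested. Without both libraries numbered 1 the member counts were 38 and 11, against 7193 and 7151 of 17661 tested genes. Library size as the only scaling gave 32 members higher and 13 lower, with the median of all genes at -0.10 against 0.01. Over all genes it gave 6554 higher and 7854 lower of 17415 tested. No filter on low counts gave 28 members higher and 15 lower, with medians of 0.12 over members and 0.20 over all genes. Without that filter 8861 of 35722 tested genes were higher and 8739 lower. Among small changes, MCM3 turned to 0.00557 (RLE), 0.00215 (upper quartile), 0.048 (1 CPM floor), 0.00568 (DESeq2) and 0.034 (thinned). Without a filter MCM4 was at -0.076, CDC45 at -0.0032, GINS2 at -0.11, POLA2 at -0.078, TYMS at -0.13 and TK1 at -0.022. With library size only, GINS2 was at -0.0289, POLA2 at -0.000801 and TYMS at -0.051. RRM1 was at 0.0080 under the 1 CPM floor. TYMS ran from -0.00474 (without MGO replicate 1) to 0.053 (without Untreated replicate 4) when single libraries were left out. Without a filter all 54 members shifted by -0.18, and with library size only by -0.11, so those turns are a shift common to all members. For the other turns the cause was not tested. Deviations of same-numbered libraries from their group means correlated at 0.02 (number 1) and -0.01 (number 4). These correlations are too few to settle whether the numbers pair libraries or mark a shared batch, which the labels do not state. With the replicate number as a block, 36 members were higher and 8 lower, and 6778 and 6673 of all genes. The 4 count ratios kept their direction in every setting run.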

Other observations

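Translesion synthesis, which copies past damaged bases, was higher in 7 of 8 genes of a list outside the members, none was lower and PRIMPOL did not pass (background 41.8% higher). RAD18, the ligase that modifies PCNA at damaged forks, stood at 107, 115 and 117 CPM in MGO, against 48.0, 45.7 and 43.9 CPM in Untreated libraries, or 2.46-fold higher. POLK, a translesion polymerase, stood at 51.1, 58.7 and 60.4 CPM in MGO, against 17.3, 18.9 and 19.2 CPM in Untreated libraries, or 3.08-fold higher. REV3L, the catalytic subunit of polymerase zeta, and POLH, polymerase eta, were 2.01-fold higher and 1.70-fold higher. All 4 were higher in 3 of 3 MGO libraries than in any Untreated library, with an edgeR adjusted p of at most 8.91e-13.

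Of 7 genes that assemble chromatin behind the fork, 3 were higher, 2 lower and 2 did not pass. The 42.9% called higher lies near the 41.8% of all tested genes, while 28.6% were lower against 41.2%. SUPT16H, a subunit of the histone chaperone FACT, averaged 287 ± 10.8 CPM in MGO and 438 ± 11.3 CPM in Untreated, or 1.52-fold lower. The chaperones ASF1A (1.39-fold higher), CHAF1A (1.27-fold higher) and NASP (1.21-fold higher) were higher by smaller amounts.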
